A study of Mus musculus with 56 samples.

Results

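The change in the kidney over the first 4 h of darkness was described for mice on daytime-restricted feeding (DRF), which had food only during the day and so entered the dark without it. The members were the 8 libraries labelled DRF at ZT12 and ZT16, where ZT is zeitgeber time counted in h from lights-on, 4 mice at each, of 56 kidney libraries in 14 groups. All mice were C57BL/6J females aged 9 weeks, kept on 12 h of light and 12 h of dark and held on their regimen for 7 days. The regimens differed in the time of food and in no allele or agent, and kidneys were dissected, so ZT12 and ZT16 were measured in different animals. The labels number 4 libraries a group without naming animals. They are taken here as 4 mice. The p-values measure changes against the spread between libraries within groups, taken over all 14 groups and not from the 8 libraries alone. The nighttime-restricted feeding (NRF) mice at ZT12 and ZT16, again 4 and 4, passed through the same 4 h of darkness with food on offer and served as the comparison. The clock hours at which food was given and removed were not stated in the labels, so the exact length of the fast at ZT16 was not known.

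Darkness is the active phase of mice. In a kidney that keeps time, transcripts of the circadian clock turn over across lights-off, with the activator BMAL1 rising as some of its repressors and outputs fall. When feeding stops, insulin falls and FOXO transcription factors, which insulin holds out of the nucleus, switch on their targets, while PPARA responds to fatty acids released from fat and SREBP factors lose their drive on lipid synthesis. Body temperature and activity rise at night in mice, and chaperone genes follow temperature through heat shock factor 1. Under NRF the meal and the active phase begin together. Under DRF they are apart.

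Levels are given as CPM (reads of a gene divided by the effective library size, in M, that the authors' values carry), always for replicates 1 to 4 in that order. Gene positions are those of GENCODE on GRCm38. Changes are ZT16 minus ZT12 on the log2(CPM + 1) scale with their standard error (SE), from limma fits across 12125 genes, and a gene was called at a Benjamini-Hochberg adjusted p under 0.05. The effective sizes of the 8 libraries were 24.8 to 27.0 M, so 1 CPM stood for about 25 reads. Replicates of a group correlated with a lowest Pearson r of 0.989 across genes. The first principal component of the 8 libraries (41.6% of the variance) placed the 4 ZT12 libraries from -21.7 to -5.22 and the 4 ZT16 libraries from 6.91 to 21.7.

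Markers of proximal tubule, thick ascending limb, distal tubule, collecting duct, podocytes and endothelium were present in every library. RNA of neighbouring tissues differed between libraries. The summed level of 7 adipose markers was 255 and 308 CPM in ZT12 replicates 1 and 4 and 42.8 to 90.9 CPM in the other 6 libraries. The 8 liver markers summed to 152 to 193 CPM at ZT12 and to 164, 241, 233 and 308 CPM at ZT16. The urea transporter Slc14a2 of the inner medulla stood at 179, 116, 203 and 1.61 CPM at ZT12, against 124 to 218 CPM at ZT16, with ZT12 replicate 4 far under the other 7 libraries. Urothelial markers summed to 62.8 CPM in ZT16 replicate 1 and to at most 26.3 CPM in the other 7. The 5 markers of the thick ascending limb summed to 6934 to 9446 CPM at ZT12 and to 9744 CPM or more at ZT16, and the 10 immune markers to 22.1 to 27.6 and 27.3 to 37.7 CPM. Adrenal markers (4 of 9 with values) stayed between 5.37 and 6.45 CPM in all 8 libraries. In bulk tissue, fewer cells of a type and less RNA per cell cannot be told apart.

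Over the 4 h, 1975 genes (16.3% of those tested) were called, of which 934 rose (7.70%) and 1041 fell (8.59%). The changes were mostly small: their median size was 0.33 on the log2 scale, 268 called genes (2.21%) changed by at least 1.5-fold (188 higher, 1.55%, and 80 lower, 0.660%), 37 rose and 12 fell by 2-fold or more. Of the 1975 called genes, 1624 had groups of 4 that did not overlap, against 2518 of all 12125 genes (20.8%), 1164 of them higher (9.60%) and 1354 lower (11.2%) at ZT16. The median change over all genes was -0.0020. When the values were instead scaled to TPM (reads per gene length, set to one sum in each library), 635 of 2203 called genes rose (28.8% against 47.3%), so the balance of rises and falls rested on the scaling. Without ZT12 replicates 1 and 4, which had the most adipose RNA of the 8 libraries, 963 genes were called and 936 of them were among the 1975. Some genes that were both chosen by the rule given below and named in the text kept their direction but lost their call in those 6 libraries. They were Kcnt1, Socs2, Sdf2l1, Angptl8, Scd2, Per1, Usp2, Hlf, Junb, Ppargc1a, Dhcr7, Acss2, Atf4, Atg4b, Vars, Scnn1a and Casr, with adjusted p from 0.0523 (Sdf2l1) to 0.288 (Kcnt1). Genes picked after their values were seen, such as Foxo1 and the cell type markers, are not covered by this list.

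The 4 largest rises were of Pdk4, Depp1, Igfbp1 and Angptl4, genes known to respond to fasting. Genes with the largest changes were taken only from those of at least 5 CPM whose groups did not overlap, so for them a lack of overlap restates the choice. Pdk4 (chr6:5483351-5496309), which encodes the kinase that closes pyruvate dehydrogenase to glucose carbon, stood at 13.8, 16.4, 16.6 and 16.1 CPM at ZT12 and at 76.9, 86.7, 164 and 61.4 CPM at ZT16. The highest ZT12 mouse lay far under the lowest ZT16 mouse, and the change was 2.46 ± 0.32 (adjusted p = 2.21e-07). Depp1 (chr6:116650609-116652794), a FOXO target, went from 3.099, 3.96, 3.3 and 2.81 CPM to 22.6, 21.04, 16.8 and 27.2 CPM, a change of 2.40 ± 0.42 (adjusted p = 4.90e-05). All 4 ZT16 mice were above all ZT12 mice. Igfbp1 (chr11:7197782-7202546), a secreted binder of insulin-like growth factors that insulin represses, was at 9.19, 8.45, 9.42 and 4.26 CPM and then at 31.9, 40.4, 36.9 and 35.5 CPM, a change of 2.12 ± 0.22 (adjusted p = 1.68e-09). The liver makes much Igfbp1, and summed liver markers were higher in ZT16 replicates 2 to 4 than at ZT12. Their part in the Igfbp1 change was not tested.

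**Figure D1:**
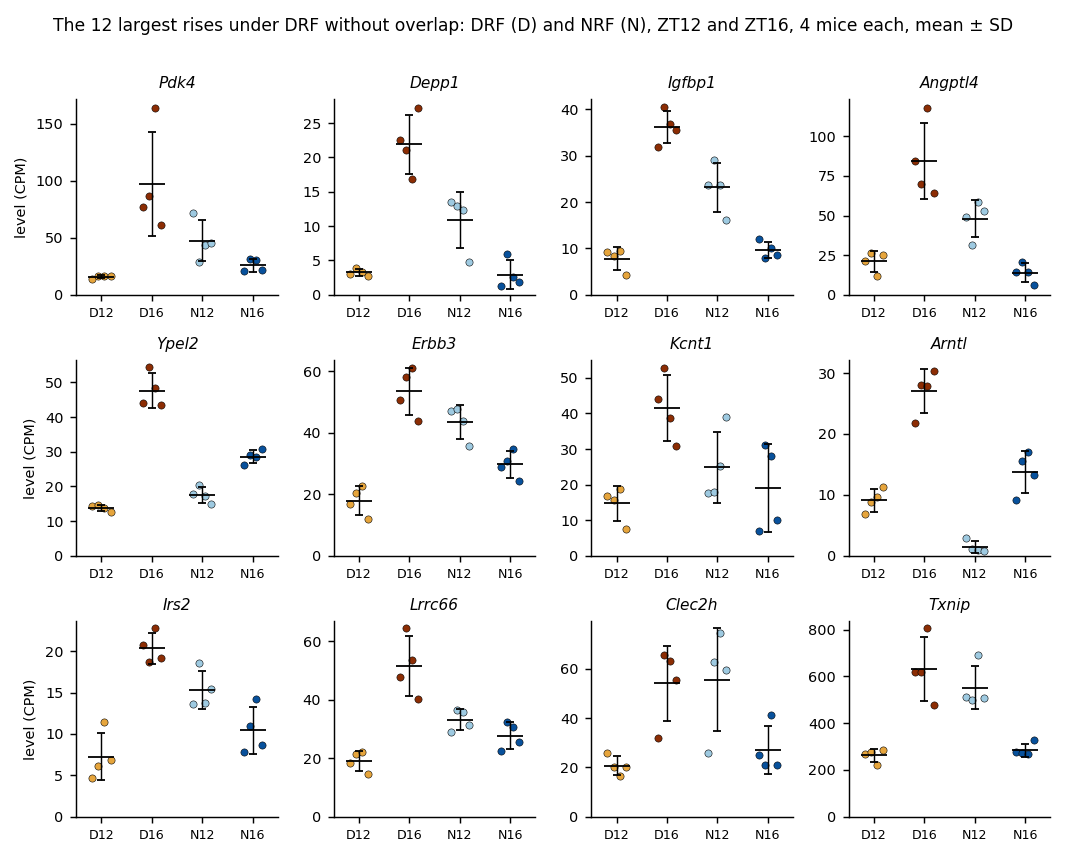
Level in CPM (vertical axes, linear from 0) of the 12 genes with the largest rise under DRF among those whose groups did not overlap, for each mouse of DRF ZT12 (D12), DRF ZT16 (D16), NRF ZT12 (N12) and NRF ZT16 (N16), with the mean and SD of 4 mice. The choice of genes sets the 4 D16 mice above the 4 D12 mice in every panel, and in panels such as Depp1 and Igfbp1 the NRF means move the other way.

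The list of 22 insulin and FOXO-responsive genes moved mainly upward. Of its 22 tested members, 11 rose, 2 fell and 9 were not called, beside 7.70% of all genes tested that rose and 8.59% that fell. The median change was 0.25 against -0.0020 over all genes. Irs2, the docking protein of the insulin receptor, rose from 4.65, 6.18, 11.4 and 6.87 CPM to 20.7, 18.7, 22.7 and 19.1 CPM, by 1.42 ± 0.21 (adjusted p = 1.83e-06). Txnip, an arrestin-like protein that restrains glucose uptake, rose from 269.8, 276, 222 and 284 CPM to 619, 619, 808 and 477 CPM, by 1.24 ± 0.20 (adjusted p = 1.00e-05). Neither gene had overlapping groups. Cited2, a co-activator binder, rose by 0.92 ± 0.08 (adjusted p = 1.10e-10) and Ccng2, an atypical cyclin that FOXO induces, by 0.91 ± 0.09 (adjusted p = 1.60e-09), both without overlap. The 2 members that fell were Ddit4, an inhibitor of mTORC1, with a change of -0.72 ± 0.16 (adjusted p = 7.78e-04), and Foxo1 itself, at -0.24 (adjusted p = 0.0246). Of the list, 10 genes rose and 1 fell when ZT12 replicates 1 and 4 were left out.

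Of 21 tested genes of fatty acid oxidation and PPARA targets, 4 rose, 1 fell and 16 were not called, with a median of 0.05, and 7.70% of all genes tested rose. Besides Pdk4, the genes that rose were Angptl4, Cpt1a and Ppargc1a. Angptl4 (chr17:33773750-33781830), a secreted inhibitor of lipoprotein lipase, was at 21.3, 26.2, 11.8 and 25.4 CPM and then at 84.5, 69.99, 118 and 64.5 CPM, a change of 1.96 ± 0.41 (adjusted p = 4.87e-04). The groups did not overlap. Adipocytes also make Angptl4. Without ZT12 replicates 1 and 4 its change was 2.15 (adjusted p = 0.00464). Ppargc1a, a co-activator of mitochondrial genes, rose by 0.46 ± 0.11 (adjusted p = 0.00192), and Cpt1a, which admits long-chain fatty acids to mitochondria, by 0.36 (adjusted p = 0.00536). Plin5, a coat protein of lipid droplets, went from 4.12, 4.03, 3.3 and 4.14 CPM to 1.44, 1.18, 3.03 and 2.24 CPM, a change of -0.76 ± 0.16 (adjusted p = 6.88e-04). The tested enzymes of the mitochondrial beta-oxidation spiral, Acadm, Acadl, Acadvl, Hadha, Hadhb and Acaa2, were not called, with changes from -0.15 (Acaa2) to 0.15 (Hadhb). Leaving out ZT12 replicates 1 and 4, 3 members of the list rose and 1 fell.

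The called genes of sterol and fatty acid synthesis were lower at ZT16, and most members of both lists were not called. Srebf1 (chr11:60199089-60222581), the transcription factor gene for fatty acid synthesis, stood at 102, 93.9, 124 and 107 CPM at ZT12 and at 45.9, 41.5, 39.5 and 55.96 CPM at ZT16. All 4 ZT16 mice lay under the lowest ZT12 mouse, a change of -1.21 ± 0.15 (adjusted p = 4.76e-08). Insig1, which anchors the sterol sensor in the endoplasmic reticulum, changed by -0.82 ± 0.17 (adjusted p = 6.12e-04) and Dhcr7, a late enzyme of cholesterol synthesis, by -0.36 ± 0.10 (adjusted p = 0.0101).

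Of the 22 tested members of the cholesterol list, none rose, 7 fell and 15 were not called (median -0.26), beside 8.59% of all genes tested that fell. Of the 14 members of the fatty acid synthesis list, none rose, 3 fell (Srebf1, Scd2 and Acss2) and 11 were not called (median -0.43). The summed adipose markers were highest in ZT12 replicates 1 and 4, as given above, and adipocytes also make fatty acids. Without these 2 libraries, leaving 6, the cholesterol and fatty acid medians were -0.28 and -0.10, and 2 and 1 members were called. The Srebf1 change was then -1.23 (adjusted p = 1.27e-05). Scd2, a desaturase, changed by -0.53 ± 0.15 (adjusted p = 0.0119), and its call was lost without ZT16 replicate 3 (adjusted p = 0.0645). Acss2, which makes acetyl-CoA from acetate, changed by -0.26 ± 0.09 (adjusted p = 0.0409), a call lost without ZT12 replicate 1, ZT12 replicate 2, ZT12 replicate 3, ZT12 replicate 4, ZT16 replicate 1 or ZT16 replicate 2 (adjusted p = 0.0528 to 0.178).

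Other large falls were in genes of varied function. Mfsd2a, a transporter of lysophospholipids that carry omega-3 fatty acids, went from 45.9, 50.7, 92.4 and 60.8 CPM to 24.1, 12.9, 15.3 and 20.9 CPM, a change of -1.70 ± 0.39 (adjusted p = 0.00147). Noct, which encodes the phosphatase nocturnin, went from 52.99, 86.2, 43.2 and 194 CPM to 39.8, 20.7, 23.6 and 28 CPM, a change of -1.50 ± 0.30 (adjusted p = 3.05e-04). ZT12 replicate 4 was far above its group for Noct, and the lowest ZT12 mouse was still above the highest ZT16 mouse. Alas1, the first enzyme of heme synthesis, went from 249, 237, 283 and 368 CPM to 145, 136, 149 and 142 CPM, a change of -0.97 ± 0.19 (adjusted p = 1.78e-04). Ache, acetylcholinesterase, changed by -1.03 ± 0.17 (adjusted p = 1.63e-05). Ell3, of a family of elongation factors, changed by -1.08 ± 0.19 (adjusted p = 5.05e-05) and Nap1l5, an imprinted gene, a change of -0.98 ± 0.20 (adjusted p = 4.37e-04). Socs2, a brake on growth hormone signalling, stood at 38.8, 35.9, 93.9 and 38.02 CPM and then at 14.8, 28.98, 17.7 and 20.1 CPM, a change of -1.22 ± 0.41 (adjusted p = 0.0343). The Socs2 call was lost without ZT12 replicate 3, ZT16 replicate 1, ZT16 replicate 3 or ZT16 replicate 4 (adjusted p = 0.0554 to 0.178).

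**Figure D2:**
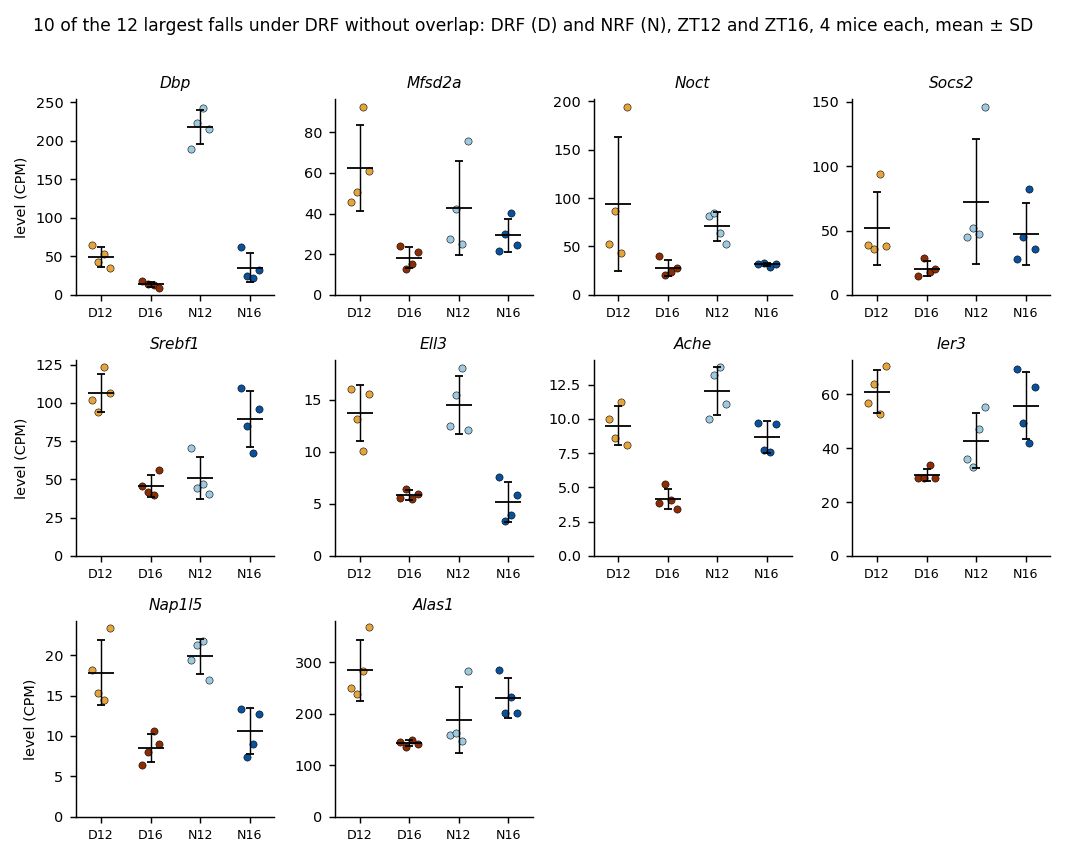
Level in CPM (vertical axes, linear from 0) of 10 of the 12 genes with the largest fall under DRF among those whose groups did not overlap, for each mouse of DRF ZT12 (D12), DRF ZT16 (D16), NRF ZT12 (N12) and NRF ZT16 (N16), with the mean and SD of 4 mice. The choice of genes sets the 4 D16 mice under the 4 D12 mice in every panel. For Srebf1, Ier3 and Alas1 the N16 mean is above the N12 mean, a change called under NRF for Srebf1 but not for Ier3 or Alas1.

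Some large rises also lay outside the fasting lists. Ypel2 went from 14.5, 14.6, 13.8 and 12.7 CPM to 44.2, 54.4, 48.5 and 43.4 CPM, by 1.70 ± 0.12 (adjusted p = 6.87e-15). The values within each group were close together and far from the other group. Erbb3, a receptor for neuregulins, went from 16.97, 20.3, 22.6 and 11.9 CPM to 50.5, 58.1, 61.1 and 43.9 CPM, by 1.55 ± 0.15 (adjusted p = 7.19e-10). Lrrc66 rose by 1.39 ± 0.18 (adjusted p = 1.93e-07) and Clec2h, a lectin-like membrane protein, by 1.31 ± 0.31 (adjusted p = 0.002). Kcnt1, a sodium-activated potassium channel, rose from 16.7, 15.8, 18.8 and 7.52 CPM to 44.03, 52.7, 38.7 and 30.9 CPM, by 1.48 ± 0.52 (adjusted p = 0.0429), and its call was lost without ZT12 replicate 1, ZT12 replicate 2, ZT12 replicate 4, ZT16 replicate 1, ZT16 replicate 2 or ZT16 replicate 3 (adjusted p = 0.06 to 0.153).

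Most clock activators rose, while most repressors were not called and some outputs were lower. Of 5 tested activators of the clock, 4 rose and Clock was not called (median 0.75), with or without ZT12 replicates 1 and 4. Of all genes tested, 7.70% rose. Arntl (chr7:113207465-113314126), which encodes BMAL1, went from 6.803, 8.75, 9.64 and 11.2 CPM to 21.9, 28.03, 27.9 and 30.4 CPM, a change of 1.48 ± 0.19 (adjusted p = 3.33e-07). Npas2, a partner of BMAL1, went from 1.74, 1.69, 1.52 and 1.81 CPM to 4.39, 6.87, 6.46 and 5.13 CPM, by 1.30 ± 0.18 (adjusted p = 9.69e-07). The nuclear receptor Rora, which drives Arntl, rose by 0.71 ± 0.08 (adjusted p = 1.64e-08). None of these 3 genes had overlapping groups.

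Of 10 tested repressors, 2 fell, none rose and 8 were not called (median -0.28), beside 8.59% of all genes tested that fell. Ciart, a repressor of the BMAL1 complex, went from 7.03, 6.64, 5.75 and 7.56 CPM to 3.57, 2.45, 2.26 and 2.31 CPM, a change of -1.09 ± 0.19 (adjusted p = 2.88e-05). Per1 went from 74.2, 91.5, 72.7 and 96.4 CPM to 68.7, 38.2, 49.9 and 38.8 CPM, a change of -0.79 ± 0.28 (adjusted p = 0.0431), and its call was lost without ZT12 replicate 1, ZT12 replicate 2, ZT12 replicate 3, ZT12 replicate 4, ZT16 replicate 2, ZT16 replicate 3 or ZT16 replicate 4 (adjusted p = 0.0529 to 0.133). Per3 did not overlap between the groups, at 88.3, 76.2, 82.5 and 67.1 CPM and then 59.2, 53.2, 52.2 and 43.2 CPM, but was not called, with a change of -0.59 ± 0.22 (adjusted p = 0.0548). Nr1d1, which encodes REV-ERB alpha, had overlapping groups and a change of -0.60 ± 0.24 (adjusted p = 0.0829), which was called without ZT12 replicate 4 or ZT16 replicate 1 (adjusted p = 0.0135 to 0.0205). With TPM scaling Per3 was called, and without ZT12 replicates 1 and 4 only 1 repressor was.

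Among 7 tested output factors, 3 fell and 1 rose, beside 8.59% of all genes tested that fell and 7.70% that rose. Dbp (chr7:45705088-45710203), a PAR bZIP activator of D-box genes, went from 64.2, 43, 53.05 and 34.7 CPM to 17.8, 14.4, 13.2 and 9.16 CPM, the largest fall named here, at -1.76 ± 0.32 (adjusted p = 7.78e-05). Nfil3, the repressor that binds the same D-box, rose from 14.7, 19.1, 16.4 and 24.9 CPM to 32.1, 34.1, 34.5 and 42.4 CPM, by 0.91 ± 0.18 (adjusted p = 2.98e-04). Hlf, a relative of Dbp, changed by -0.42 ± 0.13 (adjusted p = 0.0236) and Usp2, a deubiquitinase, a change of -0.50 ± 0.15 (adjusted p = 0.0191). The Hlf call was lost without ZT12 replicate 4 or ZT16 replicate 2 (adjusted p = 0.0877 to 0.132), and the Usp2 call without ZT12 replicate 4, ZT16 replicate 2 or ZT16 replicate 4 (adjusted p = 0.051 to 0.101). Reads of Dbp and Nr1d1 did not come out whole at their annotated lengths, so their CPM depend on those lengths.

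Promoters of the named clock genes and of the 4 largest rises and 3 of the largest falls named were searched for 4 motifs on both strands, in RefSeq windows (GRCm38.p6) of 250 bases before to 50 after the start site. Windows were found for 16 of 17 genes. The E-box CACGTG stood in 7.15% of all 32851 windows, the D-box TTATGTAA in 0.938%, the FOXO element GTAAACA in 3.65% and the cAMP response element TGACGTCA in 1.79%. A match was found in 4 of the 16 genes, each of them a clock gene, and most genes searched were clock genes by choice. A second Per1 window (chr11:69099902-69100201) held no match. The 4 windows that hold a match are shown for that reason, with the motif letters in capitals. Of the 4 genes, Ciart, Per1 and Hlf fell and Per3 was not called. Ciart (chr3:95882179-95882478, minus strand) held 3 E-boxes, Per1 (chr11:69098699-69098998, plus strand) held 1, Per3 (chr4:151044616-151044915, minus strand) held 2 D-boxes and Hlf (chr11:90390868-90391167, minus strand) held 1 cAMP response element.
Ciart: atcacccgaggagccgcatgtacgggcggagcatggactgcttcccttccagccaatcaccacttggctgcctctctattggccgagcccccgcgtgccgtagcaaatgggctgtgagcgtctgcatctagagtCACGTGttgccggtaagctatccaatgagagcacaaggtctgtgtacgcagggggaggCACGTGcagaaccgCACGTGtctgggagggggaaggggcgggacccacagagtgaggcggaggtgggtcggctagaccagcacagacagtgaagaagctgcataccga
Per1: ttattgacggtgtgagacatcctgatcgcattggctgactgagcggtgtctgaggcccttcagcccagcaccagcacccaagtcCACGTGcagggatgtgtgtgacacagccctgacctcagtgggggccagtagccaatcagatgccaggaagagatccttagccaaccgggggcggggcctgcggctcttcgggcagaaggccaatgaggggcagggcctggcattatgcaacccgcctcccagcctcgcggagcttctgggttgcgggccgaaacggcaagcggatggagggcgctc
Per3: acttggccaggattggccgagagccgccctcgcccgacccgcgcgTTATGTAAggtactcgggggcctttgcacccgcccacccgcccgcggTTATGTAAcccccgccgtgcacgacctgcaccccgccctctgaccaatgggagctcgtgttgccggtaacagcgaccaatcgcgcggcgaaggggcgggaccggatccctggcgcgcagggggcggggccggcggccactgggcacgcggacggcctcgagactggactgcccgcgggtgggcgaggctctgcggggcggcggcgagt
Hlf: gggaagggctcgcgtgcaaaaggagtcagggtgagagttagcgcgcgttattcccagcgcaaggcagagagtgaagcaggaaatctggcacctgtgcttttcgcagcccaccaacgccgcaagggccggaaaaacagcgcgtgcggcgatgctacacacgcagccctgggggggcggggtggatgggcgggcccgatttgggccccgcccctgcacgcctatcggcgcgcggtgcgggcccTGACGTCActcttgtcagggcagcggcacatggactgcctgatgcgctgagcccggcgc
Counted from the start site, the 3 Ciart E-boxes began at -116, -58 and -44, the Per1 E-box at -166, the Per3 D-boxes at -205 and -158 and the Hlf element at -9. These matches describe the letters of the windows only.

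Chaperone genes rose in the dark without food. Of 23 tested genes of the endoplasmic reticulum chaperone and unfolded protein list, 17 rose, none fell and 6 were not called (median 0.36). Of all genes tested, 7.70% rose. Hspa5, which encodes the chaperone BiP, went from 424, 494, 666 and 641 CPM to 1108, 930.3, 946 and 963 CPM, by 0.85 ± 0.15 (adjusted p = 5.36e-05). Creld2, a secreted chaperone-like protein, went from 22.8, 23.6, 31.1 and 33 CPM to 58.3, 44.97, 47.2 and 46.9 CPM, by 0.83 ± 0.14 (adjusted p = 4.05e-05). Dnajb9, a BiP co-chaperone, rose by 0.68 ± 0.12 (adjusted p = 4.07e-05) and Syvn1, the ubiquitin ligase of degradation from the reticulum, by 0.46 ± 0.08 (adjusted p = 4.94e-05). The stress transcription factor genes Ddit3 and Xbp1 were not called, at -0.09 (adjusted p = 0.646) and 0.08 (adjusted p = 0.668).

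Of 20 tested cytosolic and mitochondrial heat shock proteins, 8 rose, none fell and 12 were not called (median 0.24), beside 7.70% of all genes that rose. Hsp90ab1, the constitutive HSP90, went from 1048, 1091, 1135 and 1404 CPM to 1769, 1629, 1685 and 1427 CPM, by 0.48 ± 0.07 (adjusted p = 7.73e-07). The groups did not overlap, though ZT12 replicate 4 came close to the lowest ZT16 mouse, replicate 4. Its co-chaperones Ahsa1, Stip1 and Chordc1 rose by 0.51 ± 0.08 (adjusted p = 8.52e-06), 0.44 ± 0.07 (adjusted p = 2.63e-05) and 0.56 ± 0.10 (adjusted p = 3.66e-05). The cold-inducible RNA-binding gene Rbm3 went from 131, 113, 121 and 126 CPM to 78.6, 76.1, 78.2 and 77.6 CPM, a change of -0.65 ± 0.10 (adjusted p = 7.54e-06), with the 4 ZT16 values close together. Its relative Cirbp was not called, at -0.29 ± 0.14 (adjusted p = 0.153), but was called without ZT12 replicate 4 (adjusted p = 0.0219). Without ZT12 replicates 1 and 4, 13 reticulum and 7 heat shock genes rose.

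Of 26 tested ribosome biogenesis genes 7 fell, none rose and 19 were not called (median -0.12), beside 8.59% of all genes tested that fell. Nop56, a core protein of box C/D ribonucleoproteins, went from 35.9, 33.4, 35.1 and 37.9 CPM to 24.3, 24.99, 27.7 and 28.2 CPM, a change of -0.42 ± 0.07 (adjusted p = 2.04e-05). Rrp12 and Wdr43, which act in assembly of the small subunit, changed by -0.47 ± 0.10 (adjusted p = 9.03e-04) and -0.32 ± 0.04 (adjusted p = 9.16e-07), and Ncl, nucleolin, a change of -0.19 ± 0.04 (adjusted p = 5.72e-04). Of 19 aminoacyl-tRNA synthetases, which charge tRNA with amino acids, 2 fell and none rose, a share near that of all genes. Lars, the leucine enzyme, changed by -0.39 ± 0.06 (adjusted p = 2.10e-06) and Vars, the valine enzyme, a change of -0.28 ± 0.08 (adjusted p = 0.00667). Without ZT12 replicates 1 and 4, 5 ribosome genes and 1 synthetase fell. Myc, an activator of ribosome genes, went the other way, from 5.896, 4.799, 7.304 and 5.27 CPM to 13.1, 11.5, 13.8 and 11.4 CPM, by 0.99 ± 0.13 (adjusted p = 1.93e-07).

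Of the 17 tested genes of the ATF4 and amino acid response, 1 rose and 1 fell, beside 16.3% of all genes tested that were called. Sesn2, a leucine sensor that restrains mTORC1, went from 24.4, 26.9, 36.1 and 19.9 CPM to 50.9, 56.9, 64.1 and 50.6 CPM, by 1.05 ± 0.13 (adjusted p = 5.28e-08). Atf4 itself changed by -0.27 ± 0.08 (adjusted p = 0.0197), a call lost without ZT12 replicate 1, ZT12 replicate 4 or ZT16 replicate 2 (adjusted p = 0.0543 to 0.0734). Of 17 tested autophagy genes 5 rose and 1 fell (median -0.0026), beside 7.70% of all genes tested that rose and 8.59% that fell. Atg14, a subunit of the lipid kinase that starts autophagosomes, went from 15.6, 16.7, 14.3 and 14.3 CPM to 27.1, 25.7, 27.9 and 24.7 CPM, by 0.76 ± 0.07 (adjusted p = 3.39e-11). Gabarapl1, of the family that coats autophagosomes, rose by 0.74 ± 0.11 (adjusted p = 3.50e-06). In the 6 libraries left without ZT12 replicates 1 and 4, 4 autophagy genes rose and none fell.

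Among 11 tested genes of gluconeogenesis, which the kidney shares with the liver, 2 rose and 1 fell. Of all genes tested, 16.3% were called. G6pc, the catalytic subunit that releases free glucose, stood at 769, 757, 774 and 1233 CPM and then at 1586, 1559, 2120 and 1920 CPM, a change of 1.04 ± 0.23 (adjusted p = 8.54e-04). ZT12 replicate 4 was the highest of its group and still under every ZT16 mouse. Gpt2, a mitochondrial alanine aminotransferase, went from 59.8, 63.97, 68.9 and 64.8 CPM to 32.2, 36.8, 42.4 and 39.5 CPM, a change of -0.76 ± 0.14 (adjusted p = 1.22e-04). Pck1, the rate-limiting enzyme, was not called, with a change of -0.28 (adjusted p = 0.459).

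Immediate early genes were split, with 3 of 19 higher and 3 lower, beside 7.70% of all genes tested that rose and 8.59% that fell. Besides Myc, Klf6 rose by 0.49 ± 0.08 (adjusted p = 2.19e-05) and Junb by 0.49 ± 0.15 (adjusted p = 0.0214), the latter call lost without ZT12 replicate 2, ZT12 replicate 4 or ZT16 replicate 1 (adjusted p = 0.0763 to 0.141). Ier3, an early gene of growth signals, went from 56.7, 63.7, 52.5 and 70.7 CPM to 28.9, 28.9, 33.6 and 28.9 CPM, a change of -0.99 ± 0.24 (adjusted p = 0.0023). With the same 2 libraries left out, 2 immediate early genes rose and 1 fell. Of 15 tested glucocorticoid targets 2 fell (Per1 and Ddit4) and 1 rose, beside 16.3% of all genes tested that were called. The median of the glucocorticoid targets was 0.00016. Sgk1, the kinase of aldosterone action, spread widely at ZT12, at 521, 678, 349.6 and 849 CPM, and its change was -0.61 ± 0.33 (adjusted p = 0.214). Rgs2, a regulator of G protein signals, rose by 0.38 ± 0.13 (adjusted p = 0.0428), a call lost without ZT12 replicate 1, ZT12 replicate 3, ZT16 replicate 1, ZT16 replicate 2 or ZT16 replicate 3 (adjusted p = 0.0574 to 0.22).

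Transport genes of the tubule were taken in 4 lists, to be read against the 16.3% of all genes that were called. Of 20 tested genes of sodium and potassium transport 2 rose and none fell, among them Scnn1a, a subunit of the epithelial sodium channel, at 0.31 ± 0.10 (adjusted p = 0.0202). The Scnn1a call was lost without ZT12 replicate 3 or ZT16 replicate 1 (adjusted p = 0.0528 to 0.0552), and none of the 20 was called without ZT12 replicates 1 and 4. Of 13 tested genes of water and urea transport only Avpr1a, a vasopressin receptor, was called, rising from 8.73, 9.79, 10.3 and 11.6 CPM to 17.5, 20.5, 20.4 and 17.3 CPM, by 0.84 ± 0.14 (adjusted p = 1.49e-05). Of 15 genes of phosphate, calcium and vitamin D handling 3 rose and 1 fell. Casr, the calcium-sensing receptor, rose by 0.48 ± 0.10 (adjusted p = 9.50e-04), the sodium-calcium exchanger Slc8a1 by 0.76 ± 0.18 (adjusted p = 0.00181) and the magnesium channel Trpm6 by 0.56 ± 0.14 (adjusted p = 0.00333), while Fgfr1, a receptor of FGF23, changed by -0.26 ± 0.05 (adjusted p = 1.75e-04). The summed markers of the distal tubule were 1220 to 1700 CPM at ZT12 and 1492 to 1837 CPM at ZT16. For the thick ascending limb, where Casr is expressed, the sum was higher in every ZT16 mouse than in any ZT12 mouse. Of its 5 markers only Egf was called, and none without ZT12 replicates 1 and 4. Cldn16, alone of the 5, went the other way, from 14.8, 16.2, 15.4 and 13.0 CPM to 11.4, 12.2, 12.7 and 13.8 CPM. The part of these cell types in the changes was not tested. Of 16 tested proximal transporters 1 was called, the glutamate transporter Slc1a1 at -0.30 ± 0.10 (adjusted p = 0.0339), a call lost without ZT12 replicate 3, ZT12 replicate 4, ZT16 replicate 1 or ZT16 replicate 2 (adjusted p = 0.0707 to 0.186).

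Counts of interferon, cell cycle and antioxidant genes are to be read against the 16.3% of all genes that were called. Of 19 tested interferon response genes limma called 0, both with its trend and with voom, and 2 had an unadjusted p under 0.05. Gbp2, a guanylate-binding protein, had the smallest p, with a change of 0.66 ± 0.30 (adjusted p = 0.141). Of 15 tested cell cycle genes 1 rose and 1 fell. Both are subunits of the same replicative helicase: Mcm7 rose by 0.41 ± 0.08 (adjusted p = 3.44e-04) and Mcm2 changed by -0.28 ± 0.08 (adjusted p = 0.0126), the latter call lost without ZT12 replicate 3, ZT16 replicate 3 or ZT16 replicate 4 (adjusted p = 0.0548 to 0.0761). Of 12 NRF2 and antioxidant genes 2 rose. Hmox1, heme oxygenase 1, went from 26.5, 33.4, 56.5 and 58.9 CPM to 55.5, 156, 244 and 188 CPM, by 1.74 ± 0.34 (adjusted p = 1.97e-04). For Hmox1, ZT16 replicate 1 lay within the ZT12 range while the other 3 mice were above it. Macrophages also make Hmox1, and the part of the immune markers given above was not tested. The other gene that rose was Sod2, the mitochondrial superoxide dismutase, at 0.23 ± 0.07 (adjusted p = 0.0194), a call lost without ZT12 replicate 3 or ZT16 replicate 3 (adjusted p = 0.0618 to 0.0789).

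**Figure D3:**
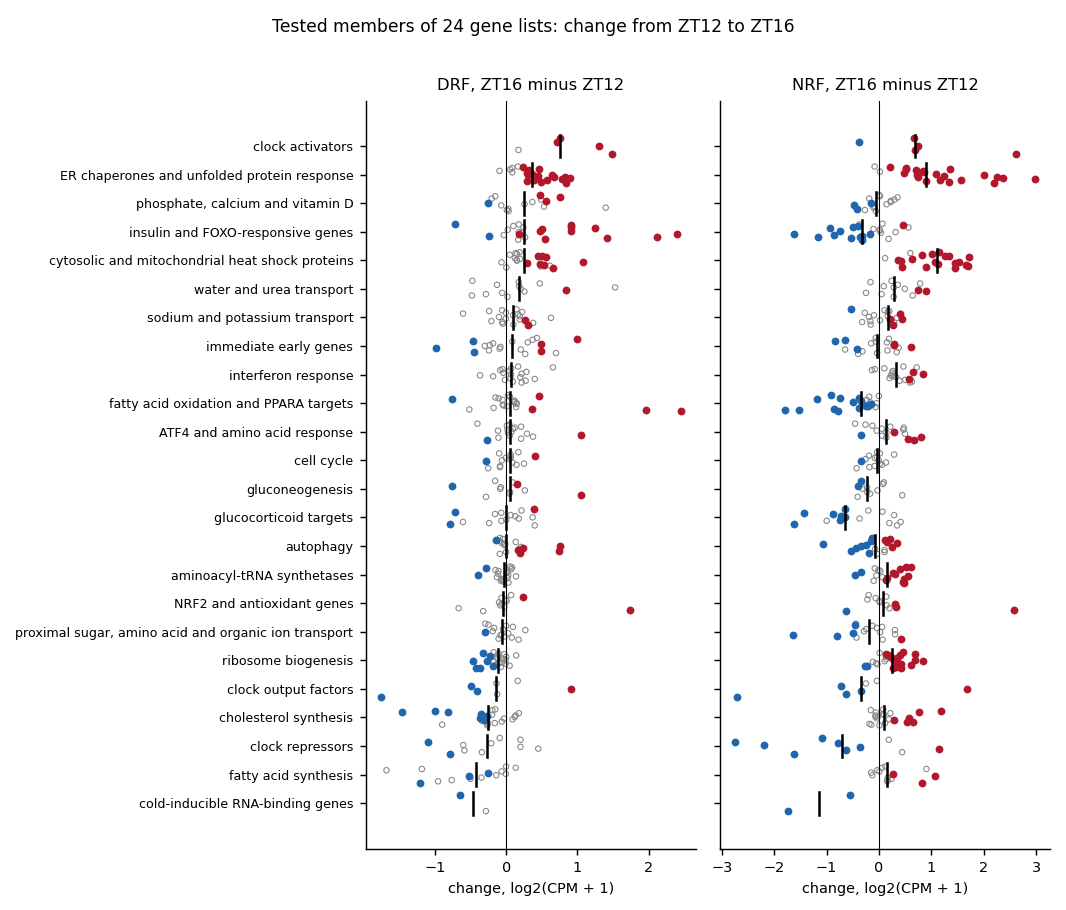
Change from ZT12 to ZT16 in log2(CPM + 1) (horizontal axes) of each tested member of 24 gene lists (rows), under DRF (left) and NRF (right). Filled red and blue points are genes called higher and lower, open points were not called, and the black bar is the median. Insulin and FOXO-responsive genes rise under DRF (11 of 22) and fall under NRF (12 of 22), while no called chaperone gene falls under either. Of all genes tested, 7.70% rise under DRF and 15.8% fall under NRF.

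The NRF mice gave the same contrast with food on offer. Over these hours, 4070 genes (33.6%) were called, 2159 higher (17.8%) and 1911 lower (15.8%). The change differed between the regimens for 2159 genes (17.8%), of which 929 had the higher value under DRF (7.66%) and 1230 the lower (10.1%). At 1.5-fold or more, 595 genes were called under NRF (4.91%), 271 higher (2.24%) and 324 lower (2.67%), and 578 for the difference (4.77%), 336 of them higher under DRF (2.77%). Of the 934 genes that rose under DRF, 305 (32.7%) also rose under NRF, 127 (13.6%) fell and 502 (53.7%) were not called. These 305 made up 14.1% of the NRF rises. Of the 1041 that fell, 470 (45.1%) also fell under NRF, 124 (11.9%) rose and 447 (42.9%) were not called, and the 470 made up 24.6% of the NRF falls. Each of the 127 and 124 genes with opposite calls also passed the test of the difference. This outcome was set by the opposite calls, since both changes of a gene carry the same SE, and adds no evidence. Across all 12125 genes the changes of the regimens, which share no library, correlated with r = 0.28, and genes are not independent replicates.

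The largest regimen differences higher under DRF were of the same 4 genes as the largest rises, with Klf11 and Clec2h. Under NRF, Depp1 went from 13.5, 12.9, 12.4 and 4.72 CPM to 1.36, 5.97, 2.64 and 1.85 CPM, a change of -1.62 ± 0.42 (adjusted p = 0.00226), so its DRF change exceeded its NRF change by 4.03 ± 0.60 (adjusted p = 2.27e-06). Angptl4 changed under NRF by -1.79 ± 0.41 (adjusted p = 5.17e-04), with a regimen difference of 3.76 ± 0.58 (adjusted p = 3.98e-06). Igfbp1 and Pdk4 changed under NRF by -1.17 ± 0.22 (adjusted p = 3.92e-05) and -0.79 ± 0.32 (adjusted p = 0.0488), with differences of 3.29 ± 0.31 (adjusted p = 1.85e-10) and 3.25 ± 0.45 (adjusted p = 5.90e-07). Klf11, a Krüppel-like factor, rose under DRF by 1.22 ± 0.23 (adjusted p = 1.69e-04) and changed under NRF by -1.44 ± 0.23 (adjusted p = 3.26e-06), a difference of 2.66 ± 0.33 (adjusted p = 7.51e-08). In each of these 5 genes the means of DRF ZT12 and NRF ZT16 were the lowest of the 4 groups. Of the 22 FOXO-responsive genes, 1 rose and 12 fell under NRF, and the difference was called for 15, of which 14 were higher under DRF. Of the 21 fatty acid oxidation genes, none rose and 14 fell under NRF, and 8 differed, all higher under DRF. Over all genes tested, 15.8% fell under NRF and 7.66% differed with the higher value under DRF.

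Srebf1, Angptl8 and Scd2 were lower under DRF and higher under NRF. Srebf1 rose under NRF from 70.8, 44.2, 47.1 and 40.6 CPM to 109.8, 85.1, 66.98 and 95.9 CPM, by 0.82 ± 0.15 (adjusted p = 1.63e-05), a regimen difference of -2.02 ± 0.21 (adjusted p = 7.24e-10). Its highest NRF ZT12 mouse lay above its lowest NRF ZT16 mouse. Angptl8, an insulin-induced secreted protein, changed under DRF by -0.93 ± 0.23 (adjusted p = 0.00332) and rose under NRF by 0.77 ± 0.23 (adjusted p = 0.00825). Its NRF values went from 3.337, 4.089, 3.896 and 3.246 CPM to 15.74, 5.335, 4.12 and 6.084 CPM. NRF ZT16 replicate 1, where adipose markers summed to 1053 CPM, lay far above the other mice. Scd2 rose under NRF by 1.08 ± 0.15 (adjusted p = 2.51e-07), a difference of -1.60 ± 0.22 (adjusted p = 3.40e-07). Of the 22 cholesterol genes, 6 rose and none fell under NRF, and 8 differed, all lower under DRF. Of the 14 fatty acid synthesis genes, 3 rose and none fell under NRF, and only Srebf1 and Scd2 differed, with 12 not called. Over all genes tested, 17.8% rose under NRF, 17.8% differed and 10.1% differed with the lower value under DRF. The fatty acid synthesis counts lie near these shares. The adipose markers of the NRF mice summed to 1483, 92.6, 200.4 and 52.4 CPM at ZT12 and to 1053, 549.8, 48.2 and 34.3 CPM at ZT16, and their part in these differences was not tested.

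**Figure D4:**
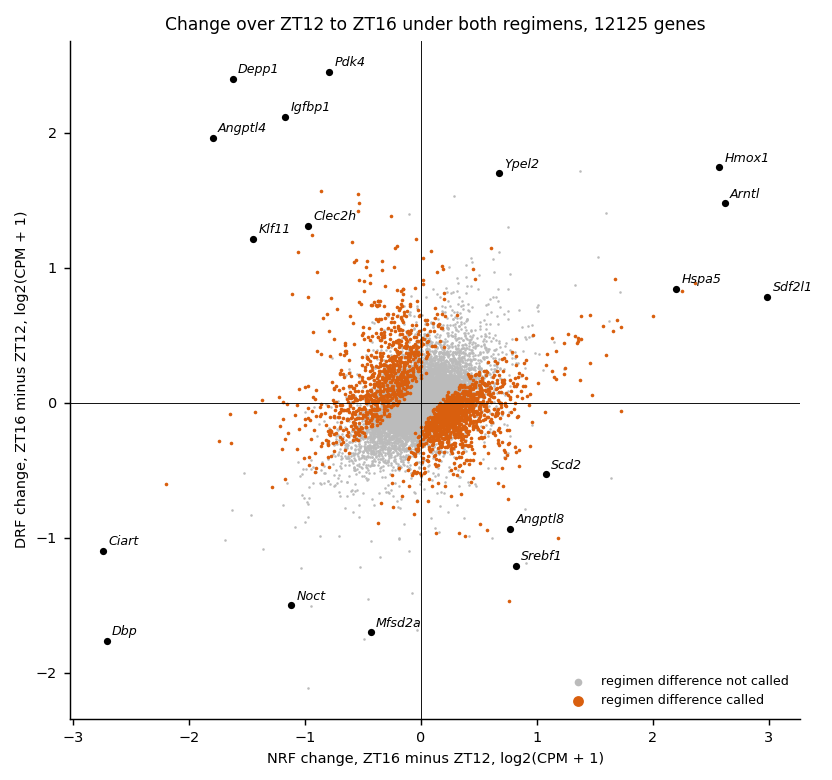
Change from ZT12 to ZT16 under NRF (horizontal axis) and DRF (vertical axis), both in log2(CPM + 1), for the 12125 genes tested, each a point. Orange marks the 2159 genes whose change differed between the regimens, and black marks named genes. Pdk4, Depp1, Igfbp1 and Angptl4 lie at the upper left (higher under DRF, lower under NRF), Srebf1, Angptl8 and Scd2 at the lower right, and Dbp and Ciart at the lower left (lower under both) and Arntl and Hspa5 at the upper right.

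Under NRF 21 of 23 reticulum genes and 18 of 20 heat shock genes rose and none fell, beside 17.8% of all genes tested that rose. All of the 18 reticulum genes and 14 heat shock genes whose change differed had the smaller value under DRF. Sdf2l1, a cofactor of BiP, rose from 9.41, 7.99, 15.3 and 10.1 CPM to 19.9, 18.5, 17.04 and 19.5 CPM under DRF and from 2.91, 3.35, 3.16 and 4.19 CPM to 34.2, 28.2, 34.4 and 38.9 CPM under NRF, changes of 0.79 ± 0.19 (adjusted p = 0.00205) and 2.99 ± 0.19 (adjusted p = 6.58e-17). All NRF mice lay under all DRF mice at ZT12 and above them at ZT16. Hspa5 rose by 2.20 ± 0.15 (adjusted p = 7.48e-16) under NRF, a difference of -1.36 ± 0.21 (adjusted p = 5.81e-06). Arntl rose by 2.62 ± 0.19 (adjusted p = 1.39e-14) under NRF, from 2.98, 1.09, 1.003 and 0.8304 CPM, and the difference was -1.14 ± 0.28 (adjusted p = 0.00225). Ciart changed under NRF by -2.74 ± 0.19 (adjusted p = 5.43e-16), from 28.6, 28.6, 30.9 and 25.97 CPM, a regimen difference of 1.65 ± 0.26 (adjusted p = 7.26e-06). Dbp changed under NRF by -2.71 ± 0.32 (adjusted p = 5.24e-09), and its difference of 0.95 ± 0.45 (adjusted p = 0.151) was not called. Hmox1, Rbm3, Avpr1a and Lars were also called in the same direction under NRF, at 2.575, -0.55, 0.75 and -0.47. Their regimen differences were not called (adjusted p = 0.2485, 0.709, 0.815 and 0.623). Rora, which rose under DRF, changed under NRF by -0.38 ± 0.08 (adjusted p = 2.95e-04). Of the 26 ribosome biogenesis genes 16 rose and 2 fell under NRF, and 17 of 18 called differences were lower under DRF. Over all genes tested, 10.1% differed with the lower value under DRF.

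Levels at the other DRF times place the 4 h within the day. Group means with SD of 4 mice are given here with no test. Depp1 was at 6.32 ± 1.98 CPM at ZT8, 21.9 ± 4.29 CPM at ZT16 and 8.56 ± 2.45 CPM at ZT20, against 8.82 ± 8.02 CPM at ZT24, so ZT16 held its highest mean. Igfbp1 had a second high point, at 33.3 ± 4.45 CPM at ZT8, between 12.4 ± 1.22 CPM at ZT4 and 7.83 ± 2.41 CPM at ZT12. Pdk4 had a higher mean still at ZT20, 336 ± 114 CPM, against 97.3 ± 45.8 CPM at ZT16. Angptl4 was about as high at ZT20, at 94.2 ± 43.9 CPM. G6pc peaked at ZT16, at 1796 ± 271 CPM, and was at 494 ± 110.2 CPM at ZT20.

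Hspa5 had 2 high points in the DRF day. Hspa5 was at 320.2 ± 59.9 CPM at ZT0, 1097 ± 257 CPM at ZT4, 394 ± 37.2 CPM at ZT8, 556 ± 116 CPM at ZT12, 987 ± 82.03 CPM at ZT16 and 446 ± 40.98 CPM at ZT20. The ZT4 and ZT16 means differed by less than the SD at ZT4. Under NRF its highest mean was at ZT16, at 1383 ± 159 CPM. Rbm3 had its low point at ZT16 under DRF, at 77.6 ± 1.09 CPM, against 107 ± 6.26 CPM at ZT20. Srebf1 stayed low after ZT16, at 38.5 ± 6.44 CPM at ZT20, and the Alas1 mean was 143 ± 5.42 CPM at ZT16 and 76.2 ± 15.8 CPM at ZT20. Dbp had its DRF high point at ZT8, at 152 ± 33.7 CPM, and was lower already at ZT12, at 48.7 ± 12.8 CPM, while under NRF it was highest at ZT12, at 218 ± 21.99 CPM.

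**Figure D5:**
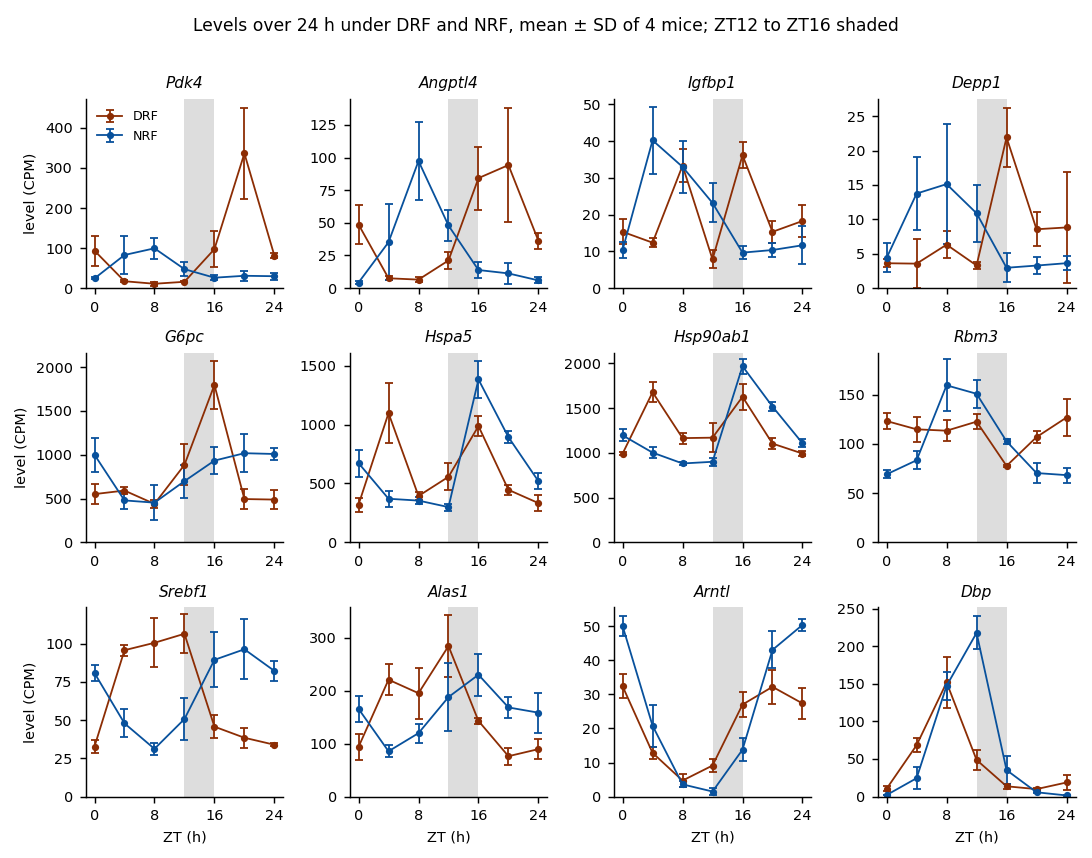
Group mean and SD (4 mice) of the level in CPM (vertical axes, linear from 0) of 12 genes at ZT0 to ZT24 (horizontal axes, h) under DRF (brown) and NRF (blue), with ZT12 to ZT16 shaded. Under DRF the Pdk4 mean is highest at ZT20 and those of Depp1 and G6pc at ZT16, and Hspa5 and Hsp90ab1 are high at ZT4 and ZT16 under DRF and highest at ZT16 under NRF.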

How the data were processed

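Poly(A) RNA from the kidney was read from both ends on the BGIseq500 platform, per the labels. The submitters' processing notes name HISAT2, Bowtie2 and RSEM with the builds mm10 and GRCm38.p6, in no stated order. The authors deposited 1 table of 17027 genes and called its values TPM. As tested on the table, these deposited values form a score: log2(CPM + 1) divided by a gene length and scaled to nearly one sum (999145 to 999753) in every library. Multiplying by the exon length from GENCODE M21 and dividing by the library's scale gave whole reads (within 0.05) for 15325 genes, 1014 of them at a length found by search. In these, 98.98% of the values above 0 were whole (98.7% in the lowest library). The 1482 genes with fractional reads and 220 with no usable length were left out, except Dbp and Nr1d1, kept at annotated lengths. The authors' effective library sizes were kept. Recovered reads totalled 22.4 to 23.5 M in the 8 libraries.

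The 12125 genes with a mean of at least 1 CPM over 56 libraries were tested on log2(CPM + 1), a scale that understates changes near 1 CPM. limma 3.58.1 in R 4.3.3 was fitted to all 14 groups with a mean-variance trend, and p-values were adjusted by Benjamini-Hochberg over all genes. Counting by strand was not stated, so reads of genes that overlap on opposite strands, such as Nr1d1 and Thra, cannot be told apart. On simulated data of the DRF contrast, with 200 of 12125 genes changed, 66.7% were recovered at a log2 change of 0.585 and 100% at 1. The simulation gave every gene the same dispersion and no RNA of neighbouring tissues, so these shares do not hold for genes that varied more between mice. Slc14a2, for example, changed by 1.53 and was not called by limma (adjusted p = 0.578). Named genes were, with at least 5 CPM and groups that do not overlap, the 12 largest called changes each way, then up to 4 members with the smallest adjusted p of each of 24 lists, and with at least 5 CPM the 6 largest regimen differences each way. Of the 110 genes so chosen, 106 were carried through the alternatives, not all of them named in the text, and the others are not reported here. Cpt1a, Foxo1, Acadm, Acadl, Acadvl, Hadha, Hadhb, Acaa2, Ddit3, Xbp1, Clock and Pck1, and the cell type markers given singly, were picked after their values were seen. The members and lists were chosen with earlier results of these data known. Of 411 listed genes 373 were tested, 26 had no whole reads, 10 were under 1 CPM and 2 were not used here. Leaving out DRF ZT12 replicates 1 and 4, with the most adipose RNA of the 8 libraries, was chosen after seeing the data. NRF libraries with higher sums of adipose markers were kept. They were ZT12 replicate 1 (1483 CPM) and ZT16 replicates 1 and 2 (1053 and 549.8 CPM). Other alternatives were 3 scalings (TPM, median of ratios, the deposited values), a pseudocount of 0.1, filters at none and 5 CPM, all genes with a length, voom, the compared groups alone, a replicate block, a 1.5-fold minimum and each library left out in turn.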

Additional observations from a re-analysis of the deposited data

Results flagged for a closer look

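Adjusted p-values of limma showed a change from ZT12 to ZT16 that differed between DRF and NRF for 2159 genes, and for 52 of the 106 chosen genes. Values in parentheses are the DRF change minus the NRF change on the log2(CPM + 1) scale.

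Genes called in opposite directions by regimen and with the higher change under DRF were Depp1 (4.03), Angptl4 (3.76), Igfbp1 (3.29), Pdk4 (3.25), Klf11 (2.66), Clec2h (2.28), Txnip (2.18), Erbb3 (2.09), Irs2 (1.96), Sesn2 (1.39), Gabarapl1 (1.28), Atg14 (1.10), Rora (1.09), Rgs2 (1.03) and Ulk1 (0.68). Genes called in opposite directions by regimen and with the lower change under DRF were Srebf1 (-2.02), Angptl8 (-1.70), Scd2 (-1.60), Rrp12 (-1.31), Atf4 (-0.94), Nop56 (-0.85) and Atg4b (-0.25). Genes called in the same direction in both regimens and with the higher change under DRF were Ciart (1.65), Ypel2 (1.03) and Cited2 (0.45). Genes called in the same direction in both regimens and with the lower change under DRF were Sdf2l1 (-2.20), Creld2 (-1.43), Hspa5 (-1.36), Chordc1 (-1.16), Arntl (-1.14), Stip1 (-0.90), Syvn1 (-0.90), Nfil3 (-0.76), Ahsa1 (-0.76) and Hsp90ab1 (-0.65). Genes called under DRF and not under NRF and with the higher change under DRF were Kcnt1 (2.02), Lrrc66 (1.64), Ccng2 (0.89), Junb (0.80), Myc (0.80), Mcm7 (0.60), Casr (0.47) and Ppargc1a (0.47). Genes called under DRF and not under NRF and with the lower change under DRF were Ier3 (-1.37), Alas1 (-1.30), Ddit4 (-0.79), Insig1 (-0.76), Dhcr7 (-0.43) and Wdr43 (-0.33). Genes called under NRF and not under DRF and with the higher change under DRF were Nr1d1 (1.60) and Cirbp (1.46). Genes called under NRF and not under DRF, with the lower change under DRF, included only Rsad2 (-0.63).

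In 10 of 212 groups of 4 mice (106 chosen genes at 2 times), 1 mouse lay far from the other 3, which chance gives for about 1 group in 20. In ZT12 replicate 1 this was Dnajb9 at 48.2 CPM and Sars at 120.3 CPM. For ZT12 replicate 3 this was Socs2 at 93.9 CPM, Plin5 at 3.3 CPM and Gclc at 1187 CPM. In ZT12 replicate 4 this was G6pc at 1233 CPM. For ZT16 replicate 1 this was Ciart at 3.57 CPM, Creld2 at 58.3 CPM and Slc5a3 at 503 CPM. In ZT16 replicate 3 this was Ier3 at 33.6 CPM.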

How the results depend on the processing

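The 1975 genes called under DRF became 1264 with a replicate block, 268 with a 1.5-fold minimum and 963 without the 2 libraries with adipose markers. For NRF the 4070 became 2461 when the compared groups were fitted alone, 575 with a replicate block and 595 with a 1.5-fold minimum. The 2159 regimen differences became 1419 with a replicate block and 578 with a 1.5-fold minimum. Leaving out each library in turn gave 1473 to 1908, 3424 to 4356 and 1816 to 2272 genes. Every other alternative run kept the 3 counts within 1.5 times. Replicate numbers did not pair the mice: deviations of same-numbered DRF libraries correlated at 0.023, -0.087, -0.12 and 0.32, so the block is given here only. TPM scaling moved the share of higher calls from 47.3% to 28.8% under DRF and from 53.05% to 40.3% under NRF. Of 116 tests of chosen genes (106 changes under DRF and 10 regimen differences) none changed sign under any alternative run. Their calls were lost or gained most often with the 1.5-fold minimum (32 lost), without the 2 libraries with adipose markers (18 lost) and with the replicate block (10 lost, 6 gained). The cause was not tested, beyond the stricter rule of the first and the fewer libraries of the second. Depth was close between libraries and limits only genes near 1 CPM.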

Other observations

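Of the cell type marker genes tested, 6 were called in the DRF contrast, all higher at ZT16. They were 2 of 6 tested immune genes, 1 of 6 liver, 1 of 5 thick ascending limb, 1 of 4 distal tubule and 1 of 5 endothelial genes. No other marker list had a call, and 16.3% of all genes tested were called. Without ZT12 replicates 1 and 4, no liver, thick ascending limb or endothelial marker was called. Ptprc, the pan-leukocyte phosphatase, was at 13.2, 10.1, 11.8 and 12.5 CPM at ZT12 and at 18.2, 17.7, 12.6 and 18.1 CPM at ZT16, and Adgre1, a macrophage receptor, at 4.76, 3.84, 4.75 and 5.39 CPM and then 6.601, 8.41, 5.65 and 8.91 CPM. The groups overlapped for Ptprc in ZT16 replicate 3. Egf, which the thick ascending limb makes, stood at 1864, 2276, 2093 and 2215 CPM and then at 2795, 2745, 3398 and 2521 CPM. The others were Fgb, a fibrinogen chain of the liver, Flt1, an endothelial receptor, and Trpm6.

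Albumin RNA was at 42.6, 41.4, 27.03 and 41.1 CPM at ZT12 and at 41.4, 47.9, 69.2 and 132 CPM at ZT16, highest in ZT16 replicate 4. Adipoq, the adipocyte hormone, was at 14.8, 0.422, 2.71 and 29.8 CPM and then at 0.349, 0.07896, 4.52 and 1.504 CPM. Cfd, adipsin, was at 52.1, 0.7295, 8.97 and 54.02 CPM and then at 1.01, 0.197, 7.02 and 6.48 CPM, with the same ZT12 replicates 1 and 4 highest.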
